A study of Mus musculus with 2 samples.

Results

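In the replicated H3K4me3 peak list of MEL cells, the 5'-most annotated start of 3185 protein-coding genes lay between 2 neighbouring peaks rather than under one. These genes were chosen by position alone: the GENCODE M21 protein-coding genes on chromosomes 1 to 19 whose 5'-most start falls in a gap of at most 1000 bp between 2 consecutive replicated peaks and in neither peak. They are 15.3% of the 20807 genes examined and are called gap genes here. Another 5932 genes, 28.5%, had the start inside a peak. For 860 genes a peak lay within 1000 bp on 1 side only, and 10830 genes had no peak within 1000 bp. Because the peak calls chose the genes, gap sizes and peak strengths are given as a description, without tests.

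The study mapped histone H3 trimethylated at lysine 4 (H3K4me3) by chromatin immunoprecipitation and sequencing in MEL, an immortalized mouse erythroleukaemia line that the labels call an analog of human K562. It holds 1 group of 2 biological replicates with no second condition, treatment or time course, and the labels give a size range of 150 to 350 bp. Both replicates name the same cell sample, so the spread between them may be technical. Each replicate list was made with a control, per the notes deposited with the samples, and the replicated list was derived from both replicate lists and a pooled list. No read counts come with the peaks, and the depth behind each gap is unknown. As a check of the label, 12 of 12 erythroid genes, Gata1, Tal1 and Klf1 among them, had a replicated peak within 1000 bp of a start, and 0 of 8 markers of other cell types did. The share of all genes with such a peak was not counted, so the 12 of 12 has no background beside it. The 12 are regulatory genes and Epor, and do not stand for all red cell genes. Of 20 genes of the red cell membrane and its effectors, 14 had the 5'-most start in a gap or a peak, against 9117 of all 20807 genes. Add2, Ank1, Epb42 and Slc4a1 had no peak within 1000 bp of that start.

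H3K4me3 is laid down by the COMPASS family of methyltransferases and marks the nucleosomes on either side of active and poised promoters. The start itself usually lies in a nucleosome-depleted stretch where general factors and the polymerase assemble, with a positioned nucleosome downstream and another upstream. CpG islands, which attract COMPASS through CpG-binding subunits, hold most promoters of widely expressed genes, and many of them are also transcribed away from the gene or start a second gene on the other strand. Erythroid cells add genes with CpG-poor promoters that are read by GATA1, TAL1 and KLF1.

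The sequence between the upstream peak and the start is shown first, because it is the stretch that the peak calls leave open. The first set holds genes of the red cell lineage, from CpG-poor to CpG-rich: Kel (chr6:41704340-41704487, - strand), Klf1 (chr8:84901794-84901927, + strand), Gfi1b (chr2:28621983-28622182, - strand) and Tfrc (chr16:32608741-32608919, + strand). All coordinates are on mm10, which is GRCm38, and the letters are from the RefSeq copy of that assembly, read 5' to 3' on the gene's strand and ending 1 base before the start. No annotated exon overlaps any of these stretches. Capitals mark the motifs searched, on either strand. The motif of TBP is TATAAA, that of NF-Y is CCAAT, the GC box of SP factors is GGGCGG, the ETS motif is CCGGAAG, that of NRF1 is GCGCATGCG and that of YY1 is AAGATGGCG. The E-box is CACGTG, the cyclic AMP response element is TGACGTCA, the ZBTB33 motif is TCTCGCGA, the ZNF143 motif is ACTACAATT and the GATA motif is AGATAA. Matches of different motifs may overlap, and each was counted. For Gfi1b the 200 bases next to the start are printed.
Kel: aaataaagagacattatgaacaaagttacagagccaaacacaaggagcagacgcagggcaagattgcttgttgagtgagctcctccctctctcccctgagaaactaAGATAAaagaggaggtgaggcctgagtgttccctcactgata
Klf1: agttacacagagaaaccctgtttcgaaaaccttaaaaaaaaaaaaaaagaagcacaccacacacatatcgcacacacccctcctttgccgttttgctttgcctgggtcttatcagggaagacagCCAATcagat
Gfi1b: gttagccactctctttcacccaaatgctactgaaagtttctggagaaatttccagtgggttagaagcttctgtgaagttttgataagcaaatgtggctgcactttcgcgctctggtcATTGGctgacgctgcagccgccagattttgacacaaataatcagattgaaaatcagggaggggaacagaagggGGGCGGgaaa
Tfrc: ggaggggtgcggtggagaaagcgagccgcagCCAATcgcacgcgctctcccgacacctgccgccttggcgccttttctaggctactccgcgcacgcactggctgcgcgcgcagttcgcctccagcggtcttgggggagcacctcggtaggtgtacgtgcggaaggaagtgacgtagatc
The Kel stretch of 148 bases held 1 CpG dinucleotide, the Klf1 stretch of 134 bases 3 and the 200 bases of Gfi1b 5, against 21 in the 179 bases of Tfrc. Of these 4, Kel alone held an AGATAA match, and Klf1, Gfi1b and Tfrc each held a CCAAT box or its reverse complement. AGATAA was the only form of the GATA site searched. The related form TGATAA, left unmarked, occurs in the Gfi1b stretch and, as its reverse complement TTATCA, in the Klf1 stretch.

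The second set holds growth genes and a gene of the strongest gaps: Myc (chr15:61985209-61985390, + strand), the ribosomal protein gene Rps6 (chr4:86857413-86857491, - strand), the cell cycle kinase gene Wee1 (chr7:110121837-110122045, + strand) and Ppfibp1 (chr6:146888390-146888486, + strand), which had the highest weaker flank of all gap genes.
Myc: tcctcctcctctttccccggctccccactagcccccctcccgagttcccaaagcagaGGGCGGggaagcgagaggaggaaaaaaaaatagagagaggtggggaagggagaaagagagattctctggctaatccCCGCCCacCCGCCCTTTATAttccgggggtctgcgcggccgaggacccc
Rps6: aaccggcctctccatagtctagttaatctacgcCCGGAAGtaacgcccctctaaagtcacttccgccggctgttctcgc
Wee1: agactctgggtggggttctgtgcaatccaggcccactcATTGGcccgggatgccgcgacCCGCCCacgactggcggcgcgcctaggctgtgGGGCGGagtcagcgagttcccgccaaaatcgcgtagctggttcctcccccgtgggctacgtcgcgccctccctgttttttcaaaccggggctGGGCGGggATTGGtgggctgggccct
Ppfibp1: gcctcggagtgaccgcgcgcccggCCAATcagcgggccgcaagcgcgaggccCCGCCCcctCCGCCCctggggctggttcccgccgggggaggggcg
Myc held a TATA box beside 3 GC boxes, Rps6 an ETS match, and Wee1 2 CCAAT boxes with 3 GC boxes. The GC share was 82.5% in the Ppfibp1 stretch and 55.7% in that of Rps6.

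The third set shows starts whose gap is unusual in kind: the linker histone gene Hist1h1e (chr13:23622559-23622641, - strand), a pair of histone genes read away from each other, Hist2h2be and Hist2h2ac (chr3:96220881-96221118, on the strand of Hist2h2be), and the 12 bases between the starts of Rars2 and Orc3 (chr4:34614945-34614956, on the strand of Rars2), which encode a mitochondrial arginyl-tRNA synthetase and a subunit of the origin recognition complex.
Hist1h1e: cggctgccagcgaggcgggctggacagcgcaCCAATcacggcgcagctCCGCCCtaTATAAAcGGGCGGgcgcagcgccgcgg
Hist2h2be and Hist2h2ac: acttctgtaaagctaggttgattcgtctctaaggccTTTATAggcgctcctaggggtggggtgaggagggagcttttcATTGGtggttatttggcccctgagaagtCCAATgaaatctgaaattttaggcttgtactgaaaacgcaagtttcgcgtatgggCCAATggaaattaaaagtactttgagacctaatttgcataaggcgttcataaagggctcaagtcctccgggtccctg
Rars2 and Orc3: agaggcgacttc
The 238 bases shared by the 2 histone starts held 3 CCAAT boxes and a TATA box, and Hist1h1e held a TATA box within 83 bases.

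Peak cover fell away on both sides of the start within a short distance. At 300 bp upstream of the start a replicated peak covered the position in 90.8% of gap genes, at 100 bp upstream in 38.9% and at 50 bp upstream in 13.2%. Downstream the cover was 58.4% at 50 bp, 81.7% at 100 bp and 93.6% at 200 bp. The dip was asymmetric, deeper upstream of the start than at the same distance into the gene. Genes with the start in a peak also had lower cover just upstream, 71.9% at 100 bp and 72.9% at 50 bp, against 85.3% at 250 bp upstream.

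**Figure D1:**
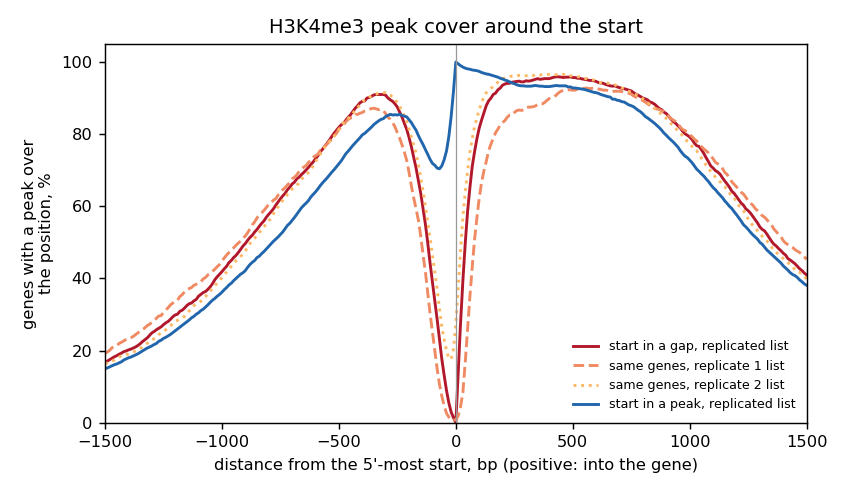
Percent of genes with an H3K4me3 peak over each position from 1500 bp upstream to 1500 bp downstream of the 5'-most start. Lines show gap genes, once for the replicated peaks and once for each replicate's peaks, and, for comparison, genes whose start lies in a replicated peak. Cover of the gap genes in the replicated list is 0 at the start, by the rule, and 90.8% at 300 bp upstream.

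The gaps were narrow. Their median size was 178 bp, with quartiles of 121 and 258 bp, and 4 of 5 lay between the deciles of 80 and 368 bp. The list holds no gap under 36 bp and no peak under 150 bp on these chromosomes, so narrower breaks cannot be seen. Gaps without any annotated start were smaller, with a median of 133 bp. Such gaps were 10259, or 71.5%, of the 14356 gaps of at most 1000 bp on these chromosomes, while 2984, or 20.8%, held the 5'-most start of a protein-coding gene.

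The start sat near the gene-side edge of the gap. A median of 120 gap bases lay upstream of the start and 40 downstream, and in 2492 genes, 78.2%, the start was nearer the downstream peak. The summit of the upstream peak lay at a median of 283 bp before the start, and no upstream summit came closer than 90 bp. The downstream summit lay at a median of 308 bp into the gene, and none came closer than 47 bp. It fell in an exon in 49.8% of genes and in an intron in 49.8%. Another annotated start of the same gene lay in the downstream peak in 71.8% of genes and in the same gap in 39.6%, so for most gap genes a peak does cover a later start.

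**Figure D2:**
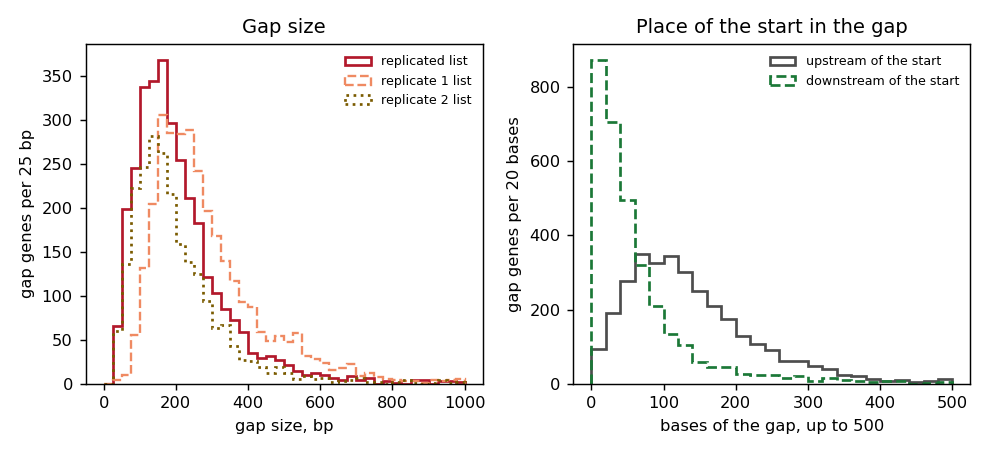
Left, numbers of gap genes by gap size in 25 bp steps, in the replicated list (median 178 bp) and, for the same genes, in the replicate 1 list (median 246 bp) and the replicate 2 list (median 168 bp). Right, bases of the replicated gap that lie upstream (median 120) and downstream (median 40) of the start, in steps of 20 bases up to 500.

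The narrowest gaps, 36 bp each, were those of Coro7, which encodes the Golgi coronin 7, and Gypc, which encodes the red cell membrane protein glycophorin C. Acat2, Bag6 and Cad followed with 37 bp each. Cad encodes the enzyme that starts pyrimidine synthesis, and Bag6 a chaperone cofactor. All 5 were split in the replicate 1 list, with gaps of 135 bp for Coro7, 173 bp for Gypc, 107 bp for Acat2, 123 bp for Bag6 and 88 bp for Cad. In the replicate 2 list all 5 starts lay inside 1 peak.

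At the other end, the widest gaps were those of the histone H3 gene Hist1h3g (994 bp), Wdcp (989 bp) and the potassium channel gene Kcnq1 (974 bp), followed by Rdm1 (972 bp) and the oxysterol-binding protein gene Osbp (954 bp). The first 3 lie just inside the limit of 1000 bp. Just outside it were Ccdc82 (1004 bp), Btbd19 (1011 bp) and the histone gene Hist1h2ai (1041 bp). Osbp had a gap of 940 bp in the replicate 1 list and one of 958 bp in the replicate 2 list, whereas the Wdcp gap was 152 bp in the first and 997 bp in the second. Rdm1 had no gap in replicate 1, where its start lay in neither a peak nor such a gap, and Hist1h3g none in replicate 2.

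The downstream peak was the stronger one in most gap genes. Strength is the authors' signal value, a number per peak with no definition in the labels or notes, and it is compared only within a list. Its median was 9.07 for the upstream and 12.7 for the downstream peak. The downstream value was the higher in 2349 of 3185 genes, 73.8%, and the median log2 ratio of downstream to upstream was 0.46. The downstream peak was also wider in 77.6% of genes, with medians of 1213 bp downstream and 700 bp upstream.

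This asymmetry went with the direction of the neighbouring gene. A protein-coding start on the other strand lay within 1000 bp upstream in 650 gap genes, 20.4%, against 9.7% of all genes and 18.7% of genes with the start in a peak. The other 2535 gap genes, called one-way here, had medians of 8.37 upstream and 13.0 downstream. Of them 2024, 79.8%, had the stronger peak downstream, with a median log2 ratio of 0.59 and quartiles of 0.11 and 1.10. At least 2 times the upstream value was reached downstream in 734 one-way genes, 29%, and the reverse held in 57, 2.25%.

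Among the 650 genes with an opposite start, 325 had the stronger peak downstream and 325 upstream, and the median log2 ratio was 0.00. In 360 of them the gap also held the start of an opposite-strand gap gene, so that 1 gene's upstream peak is the other's downstream peak and a split near 50% is fixed by construction. The 290 with an unshared gap do not have this constraint, and 147 of them, 50.7%, had the stronger peak downstream, with a median log2 ratio of 0.01. Both flanks of the 650 genes were wide, with medians of 1125 bp upstream and 1117 bp downstream, against 617 and 1237 bp in one-way genes. One-way genes with a non-coding start on the other strand lay in between: 207 of 286, 72.4%, were stronger downstream, with a median log2 ratio of 0.36, against 1817 of 2249, 80.8%, and 0.63 where no opposite start is annotated. These differences were not tested, since the lists that chose the genes also gave the values.

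**Figure D3:**
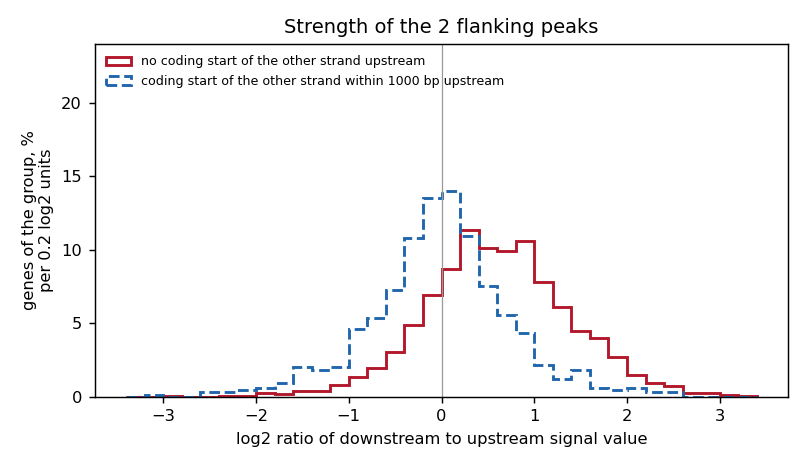
Percent of genes by log2 ratio of downstream to upstream signal value, in steps of 0.2, for the 2535 gap genes without and the 650 with a protein-coding start of the other strand within 1000 bp upstream. The first centres on a median of 0.59 and the second on 0.00.

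A pair of genes read away from each other started in 1 gap 165 times. The starts were a median of 84 bases apart and the gap a median of 200 bp, a little above the 178 bp of all gap genes. The stronger of the 2 peaks exceeded the weaker by a median log2 ratio of 0.40, against 0.69 in the gaps of one-way genes. In the Rars2 and Orc3 pair printed above, the peak on the Rars2 side had a signal value of 12.1 and that on the Orc3 side 14.5 across an 88 bp gap. In replicate 1 the values were 12.4 and 14.8 across 132 bp, and in replicate 2 13.9 and 14.5 across 64 bp, so the Orc3 side was the higher in each list. Mrpl54, a mitochondrial ribosomal protein gene, started in a gap of 68 bp with Apba3, and its own side had 13.8 against 26.9 on the Apba3 side. Its gap was 69 bp in each replicate list, with 11.3 on its own side and 12.2 on the other in replicate 1, and 15.2 and 26.1 in replicate 2.

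The largest ratios of downstream to upstream signal belonged to Pds5b, Cox6c, Cdca7, Uhmk1 and Polg. Pds5b, which encodes a regulator of cohesin, had a signal value of 1.87 upstream and 18.4 downstream of a 423 bp gap. In replicate 2 the values were 2.35 and 11.1, and in replicate 1 its start lay in neither a peak nor a gap. Cox6c, a subunit of cytochrome c oxidase, had 2.76 upstream and 23.5 downstream of 60 bp. In replicate 1 it had 3.34 and 19.4 across 124 bp, and in replicate 2 its start lay in 1 peak of 10.6. The log2 ratio was 3.06 for Cdca7, 3.04 for the protein kinase gene Uhmk1 and 2.99 for Polg, the mitochondrial DNA polymerase gene. For Cdca7 the replicates differed in degree, with 7.52 and 13.8 in replicate 1 and 2.46 and 18.3 in replicate 2.

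The opposite extreme held genes whose upstream peak was the strong one. Fbxl13, an F-box gene, had 20.2 upstream and 2.21 downstream. Its downstream peak has a −log10 q of 0.88, a q value above 0.05. In replicate 1 Fbxl13 had 13.5 and 2.45 across 128 bp, and in replicate 2 its start lay in 1 peak of 2.37. Paics, an enzyme of purine synthesis, had 14.3 upstream and 2.39 downstream. Exd1 had 15 upstream and 2.69 downstream. Each of these 3 has a protein-coding start on the other strand, 179 bp upstream of Fbxl13, 142 bp upstream of Paics and 70 bp upstream of Exd1. Irgm2, an interferon-inducible GTPase gene, and CT030661.1 have none. Irgm2 had 27.9 upstream and 4.00 downstream in the replicated list, 22.8 and 4.93 in replicate 1 and 23.7 and 3.71 in replicate 2. Of the 32-base words of its gap, 74.5% occur more than once in the genome, and of those of CT030661.1 57.8%. The part of repeated sequence in these ratios was not tested.

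The one-way share varied between 72.7% and 83.2% with gap size and between 67.6% and 82.4% with CpG class. Stronger downstream peaks were found in 335 of 431 one-way genes with gaps up to 100 bp (77.7%), in 80.4% of those above 100 and up to 200 bp, in 83.2% up to 300 bp, in 77.2% up to 500 bp and in 72 of 99 (72.7%) above that. By CpG class the share was 80% of 2211 high-CpG genes, 82.4% of 250 intermediate ones and 50 of 74 low-CpG ones, or 67.6%. The median log2 ratios of the 3 classes were 0.59, 0.58 and 0.63. These values were not tested.

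Most gap genes had CpG-rich promoters. Over 500 bases either side of the start, a promoter counted as high-CpG with a ratio of observed to expected CpG of at least 0.6 and at least 50% GC, and as low-CpG with a ratio below 0.4. High-CpG promoters made up 2807 of the gap genes, 88.1%, against 73.6% of genes with the start in a peak and 45.7% of all genes. Intermediate promoters made up 9.45% and low-CpG promoters 2.42%, or 77 genes, against 7.74% low-CpG among genes with the start in a peak. Read by class, the start lay in a gap in 29.5% of high-CpG genes and in a peak in 45.9%. Of low-CpG genes 0.947% started in a gap and 5.64% in a peak. High-CpG starts are also marked more often, so the share of gaps was taken over starts in a gap or a peak as well: it was 39.1% of 7175 high-CpG, 21.4% of 1406 intermediate and 14.4% of 536 low-CpG starts.

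**Figure D4:**
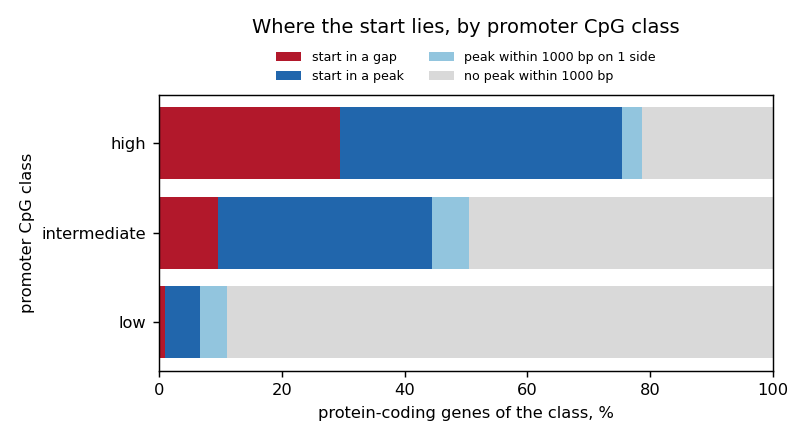
Percent of the protein-coding genes of each promoter CpG class by where the 5'-most start lies: in a gap, in a peak, outside with a peak within 1000 bp on 1 side, or with no peak within 1000 bp. Starts in a gap make up 29.5% of the high, 9.52% of the intermediate and 0.947% of the low class.

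The gap itself was richer in G and C than the peaks beside it. Its median GC share was 66.8%, against 61.5% in the 200 bases of each flanking peak next to it, and it was the higher in 2470 genes, 77.6%. Gaps without any annotated start had a median GC share of 52.4%. The median CpG ratio of the gap was 0.923. Sequence that occurs elsewhere was rare: 2873 gaps, 90.2%, held no repeated 32-base word, and 162, 5.09%, held 10% or more. Within 100 bases of the start, 10% or more were repeated in 4.52% of gap genes and in 3.05% of genes with the start in a peak. How GC content or mapping of reads acted on the calls was not tested.

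Motif matches within 150 bases of the start describe the same promoters. GC boxes were found in 79.7% of gap genes, 63.9% of genes with the start in a peak and 46.3% of all genes. CCAAT was found in 44.1%, 32.7% and 36.2%, respectively. The ZBTB33 palindrome TCTCGCGA was found in 157 gap genes, 4.93%, against 1.52% and 1.34%, and the NRF1 motif GCGCATGCG in 5.75% against 3.07% and 2.11%. ETS matches were near level in both marked groups, at 22.7% and 21.5%, with 11.7% of all genes. TATAAA and AGATAA were less frequent, at 3.27% and 3.11% of gap genes, 4.65% and 4.6% of genes with the start in a peak and 10.7% and 8.08% of all genes. Matches to GC-rich motifs rise with GC content, and these shares are not adjusted for it.

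The replicate lists split the same starts to different degrees. Of the 3185 gap genes, 3086, 96.9%, had the start in a gap in the replicate 1 list and 26 in a peak. In the replicate 2 list 2294, 72%, had it in a gap and 877, 27.5%, in a peak, and 2213, 69.5%, were in a gap in both lists. Over all genes, 5283 starts, 25.4%, lay in a gap in replicate 1 and 2375, 11.4%, in replicate 2, so the number of gap genes from replicate 1 alone is more than 1.5 times the 3185 of the replicated list. Of the genes with the start in a replicated peak, 2121, 35.8%, were split in replicate 1 and 14, 0.236%, in replicate 2.

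The gaps of the same genes were wider in replicate 1, with a median of 246 bp, than in replicate 2, with 168 bp. Genes whose start lay inside a replicate 2 peak had narrow replicated gaps, with a median of 124 bp, against 197 bp for those split in both lists. The weaker flank of the first had a median signal value of 8.92 and that of the second 8.23. Both flanking peaks were overlapped by at least 1 bp in 96.2% of genes by replicate 1 peaks and in 99.5% by replicate 2 peaks. Among one-way genes the stronger peak lay downstream in 1755 of 2445, 71.8%, in replicate 1 and in 1491 of 1800, 82.8%, in replicate 2. Both lists were used to make the replicated list, so they are no independent check. The depth of the libraries is unknown, and its part in the difference between the lists was not tested.

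The strongest gap genes had high signal on both sides. Ppfibp1, which encodes a liprin, had 23.5 upstream and 25.6 downstream of 117 bp, 14.7 and 8.63 in replicate 1 and 28 and 35.4 in replicate 2. Its upstream flank was the higher in replicate 1 and its downstream flank in replicate 2. Xpo6, the exportin for actin, had 23.5 and 24.6 across 119 bp, with 18.9 and 15.2 across 224 bp in replicate 1 and 1 peak of 25.8 in replicate 2. Pip4k2a, a phosphoinositide kinase gene, had 27.5 upstream and 22.5 downstream and has an opposite protein-coding start 217 bp upstream. The other 5 of the top 8 were Bcap29, Gatd1, Abce1, which encodes a ribosome recycling factor, the zinc finger gene Zfp592 and the endosomal GTPase gene Rab35, with gaps of 70 to 227 bp. For comparison, the weaker flank of all gap genes had a median of 8.29 and the stronger 13.5, next to 13.3 for the peak over the start in the 5932 genes with the start in a peak. The 2 peaks and their gap together spanned a median of 2180 bp, and a peak over a start 1550 bp.

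Of the 11 erythroid transcription factor genes on these chromosomes, 4 started in a gap and 7 in a peak. The share in a gap, 36.4%, is near the 34.9% of the 9117 genes with the start in a gap or a peak. Their gaps had a median of 485 bp, from 157 bp for Klf1 to 636 bp for Zfpm1, against 178 bp for all gap genes. In all 4 the downstream peak was the stronger one, both after replication and in either replicate alone. Of all one-way gap genes, 79.8% had the stronger peak downstream, with 71.8% in replicate 1 and 82.8% in replicate 2. Each of the 4 was split in both replicates.

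Klf1, the erythroid Krüppel-like factor that activates the adult beta-globin gene, had 5.38 upstream and 15.3 downstream of a 157 bp gap. Replicate 1 gave 5.68 and 10.2 across 159 bp and replicate 2 gave 5.25 and 16.9 across 155 bp, so gap and direction were alike in both. Gfi1b, a transcriptional repressor of erythroid and megakaryocytic cells, had 3.08 and 15.2 across 476 bp. It had 2.45 and 9.05 across 546 bp in replicate 1 and 2.15 and 17.7 across 418 bp in replicate 2. Its downstream peak was 4242 bp wide and its upstream peak 205 bp.

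Zfpm1 encodes FOG1, the cofactor of GATA1, and had 9.09 upstream and 14.7 downstream of 636 bp. The replicates gave 7.57 and 12.6 across 740 bp, and 10.2 and 12.8 across 607 bp. Nfe2, the erythroid subunit of the NF-E2 factor, had the weakest pair, 3.61 and 5.10 across 494 bp, with 5.82 and 9.57 in replicate 1 and 3.4 and 4.34 in replicate 2. Zfpm1 alone of the 4 has a high-CpG promoter. Klf1, Gfi1b and Nfe2 are low-CpG, with CpG ratios of 0.08, 0.32 and 0.27. Of the low-CpG starts that lie in a gap or a peak, 14.4% lie in a gap.

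Of 22 genes of haem synthesis and iron, 4 started in a gap and 11 in a peak, 26.7% of the 15, below the 34.9% of all genes. The list leaves out Tfr2, a gap gene described at the end. Tfrc, the transferrin receptor through which erythroid cells take up iron, had 4.33 upstream and 13.7 downstream of 247 bp. It had 5.40 and 10.8 across 351 bp in replicate 1 and 4.40 and 14.0 across 223 bp in replicate 2, the downstream peak being the stronger each time. Tmem14c, which moves the haem precursor in mitochondria, had 4.73 and 8.00 across 137 bp, 3.89 and 4.65 across 194 bp in replicate 1 and 1 peak of 9.50 in replicate 2. Ppox, an enzyme late in haem synthesis, was near even with 8.58 upstream and 7.79 downstream, and was slightly higher downstream in each replicate, with 6.30 and 7.31, and 9.76 and 10.5. The ferritin light chain gene Ftl1 had 6.57 and 12.1 across 388 bp, and 37.5% of the words of its gap are repeated elsewhere.

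Of 20 genes of the red cell membrane and its effectors, 5 started in a gap and 9 in a peak, 35.7% of the 14 and near the 34.9% of all genes. Kel, the Kell blood group glycoprotein gene, had 7.85 upstream and 11.8 downstream of 163 bp, 6.72 and 15.9 across 205 bp in replicate 1 and 8.31 and 12.9 across 150 bp in replicate 2. Its promoter has a CpG ratio of 0.04, the lowest of the erythroid members named. Car1, carbonic anhydrase 1, had 5.07 and 9.23 across 323 bp, and its downstream peak of 9303 bp was the widest flank of any gap gene. In replicate 1 Car1 had 4.05 and 11 across 387 bp and in replicate 2 its start lay in 1 peak. Epb41, the protein 4.1 gene, had 5.82 and 17.7 across 332 bp and was merged in replicate 2. Add1, the adducin gene, was the exception in direction, with 20.1 upstream and 16.9 downstream of 172 bp, 15.3 and 17.6 in replicate 1 and 22.5 and 15.9 in replicate 2. Gypc is the 36 bp case above, with 8.00 upstream and 18.5 downstream.

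Of 8 genes tied to Friend erythroleukaemia, 2 started in a gap and 3 in a peak, 40% of the 5 against 34.9% of all genes. The 2 were Myb and Myc. Myb had 9.37 upstream and 10.4 downstream of 202 bp, 7.97 and 11.6 across 312 bp in replicate 1 and 1 peak of 16.7 in replicate 2. Myc had 7.38 and 10.3 across 411 bp, 10.8 and 9.86 across 498 bp in replicate 1 and 8.01 and 8.36 across 372 bp in replicate 2. The log2 ratio was 0.16 for Myb and 0.47 for Myc, against a median of 0.46 over all gap genes, and Myc was higher upstream in replicate 1.

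The H3K4 methylation machinery itself had 8 of 18 genes with the start in a gap and 9 in a peak, 47.1% of the 17, against 34.9% of all genes. Among the methyltransferases, Kmt2a had 11.4 upstream and 20.1 downstream of 485 bp, and Kmt2b 5.46 and 24.6 across 334 bp. Kmt2a had 10.5 and 17.2 across 545 bp in replicate 1, and its start lay in 1 peak of 23.9 in replicate 2. For Kmt2b replicate 1 gave 4.17 and 8.94 across 490 bp and replicate 2 gave 6.25 and 29.8 across 167 bp, so the downstream peak was the stronger in each list. Among the shared and partner subunits, Wdr5 had 12.7 and 11.6 across 192 bp, Men1 5.77 and 7.66 across 235 bp, Paxip1 9.42 and 8.19 across 76 bp and Cxxc1, which binds unmethylated CpG, 8.63 and 12.2 across 190 bp. In replicate 1 the order of the flanks was the other way round for Wdr5 (10.2 and 14.6), Men1 (6.48 and 6.01) and Cxxc1 (10.8 and 8). In replicate 2 it was that of the replicated list for these 3, with 14.7 and 13.7, 6.34 and 9.28, and 9.67 and 14.4. Ncoa6 had 11.8 upstream and 4.80 downstream of 69 bp, but 9.81 and 12.5 in replicate 1 and 13.6 and 10.8 in replicate 2, so its direction differed as well. The demethylase gene Kdm1b had 15 and 20.1 across 364 bp, with an opposite protein-coding start 156 bp upstream. It was higher upstream in replicate 1, with 16.1 and 7.5, and its start lay in 1 peak in replicate 2. Paxip1 had 8.44 and 6.13 across 145 bp in replicate 1, and its start lay in 1 peak of 10.6 in replicate 2.

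The replication-dependent histone genes had a high share of gaps among starts in a gap or a peak. Of 67 genes, 21 started in a gap and 2 in a peak, so 91.3% of the 23 were in a gap, against 34.9% overall. The other 44 started in neither, many of them with a peak within 1000 bp on 1 side only. Of all 67, 31.3% were in a gap, against 15.3% of all genes and 54.5% of cell cycle and DNA replication genes. The 21 had a median gap of 600 bp and a median weaker signal value of 3. A median of 356 gap bases lay downstream of their starts, against 40 in all gap genes. Of 18 one-way members 5 had the stronger peak downstream, against 79.8% of all one-way gap genes, with a median log2 ratio of -0.23. In replicate 1 it was 7 of 18 and in replicate 2 6 of 16. Repeated sequence was common in these gaps: 16 of the 21 held 10% or more repeated words, with a median of 34.9%, against 5.09% of all gap genes. Its part in the gaps was not tested. The 5 members under 10% were Hist1h1a, Hist1h1b, Hist1h2be, Hist2h4 and Hist3h2a, with gaps of 376, 226, 223, 570 and 284 bp.

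These genes encode the histones of new chromatin in S phase. The gap held the whole gene in 1 of the 21, Hist1h4h, with a gap of 929 bp and a gene of 470 bp. Those of Hist1h3b and Hist1h3c covered 484 and 479 bases beyond the start of genes of 620 and 630 bp. The Hist2h2be and Hist2h2ac pair shared a gap of 608 bp, with 8.29 on the Hist2h2be side and 5.08 on the Hist2h2ac side. Replicate 1 gave 8.57 and 5.22 across 830 bp and replicate 2 gave 9.11 and 4.44 across 603 bp. Hist1h1e had 6.98 upstream and 4.33 downstream of 483 bp, with 8.13 and 3.21 in replicate 1 and 6.62 and 1.87 in replicate 2, so the upstream peak was the stronger in each list.

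Growth and housekeeping genes made up the next lists by share in a gap among starts in a gap or a peak. Among cell cycle and DNA replication genes, 24 of 44 started in a gap and 16 in a peak, a share of 60% of the 40. Wee1, the kinase that holds back mitosis, had 11 upstream and 24.4 downstream of 216 bp, 11.4 and 24.4 across 463 bp in replicate 1 and 1 peak of 28.1 in replicate 2. Of the 21 one-way members 15 had the stronger peak downstream, against 79.8% of all one-way gap genes, with a median log2 ratio of 1.01. In replicate 1 it was 15 of 21 and in replicate 2 12 of 15. Orc5, another subunit of the origin recognition complex, had 12.2 and 10.3 across 84 bp.

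Cytosolic ribosomal protein genes had 39 of 79 starts in a gap and 30 in a peak, 56.5% of the 69. Their promoters are known for a start in a run of pyrimidines. Of 35 one-way members 30 had the stronger peak downstream, against 79.8% of all one-way gap genes. The counts were 25 of 35 in replicate 1 and 26 of 30 in replicate 2. Rps6 had 15.4 and 16.7 across 145 bp, with 14.5 and 3.02 in replicate 1 and 16.2 and 10.8 in replicate 2, so its upstream flank was the higher in each replicate but not in the replicated list. Rps16 had 16.1 and 14.5 across 152 bp and Rpl13a 13.6 and 16.6 across 232 bp. In 11 of the 39 the gap held 10% or more repeated words, against 5.09% of all gap genes. These genes have many processed copies in the genome.

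The mitochondrial ribosomal protein genes, by contrast, were near the overall share, with 24 of 78 in a gap and 49 in a peak, 32.9% of the 73. Of the 24, 12 have an opposite protein-coding start upstream. The 12 one-way members all had the stronger peak downstream, against 79.8% of all one-way gap genes. The counts were 10 of 12 in replicate 1 and 9 of 9 in replicate 2. Mrps16 was near even, with 13.1 upstream and 13.3 downstream of 222 bp.

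The other lists spread around 34.9%. Splicing factors had 30 of 58 marked starts in a gap (51.7%), heat shock proteins and chaperones 31 of 62 (50%), RNA polymerase and Mediator subunits 21 of 49 (42.9%) and subunits of oxidative phosphorylation 28 of 69 (40.6%). Ubiquitin pathway genes had 39.2%, proteasome subunits 38.5%, aminoacyl-tRNA synthetases 35.5% and translation initiation factors 34.8%. Solute carriers with 27.4%, haem and iron genes with 26.7% and Zfp zinc finger genes with 24.9% stood below. These lists differ in CpG class and size, and their shares were not tested. Single members ranged widely: the splicing factor gene Hnrnpu had 20.0 upstream and 19.6 downstream of 133 bp, and Med13l, a subunit of the Mediator kinase module, 16.3 and 19.5 across 578 bp. Atp5c1 of the ATP synthase had 16.0 and 22.0 across 125 bp, with an opposite start 83 bp upstream.

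Olfactory receptor and Hox genes were few among the gap genes, and most of them started in neither a gap nor a peak. Of 1128 olfactory receptor genes 1127 started in neither, and none in a peak. The other 1, 0.0887% against 15.3% of all genes, was Olfr417, which started in a gap. It had 2.17 upstream and 3.75 downstream of 549 bp, low against the median weaker flank of 8.29 in the replicated list. Its values were 3.92 and 4.42 in replicate 1 and 2.27 and 2.71 in replicate 2. Of 39 Hox genes 1 started in a gap, Hoxa7, with 3.87 upstream and 12.7 downstream of 60 bp. Its replicate values were 4.93 and 5.89 across 113 bp, and 5.01 and 16.0 across 46 bp. Another 6 Hox genes started in a peak and 32 in neither. Of the 7 Hox starts in a gap or a peak, 14.3% were in a gap, against 34.9% of all genes.

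**Figure D5:**
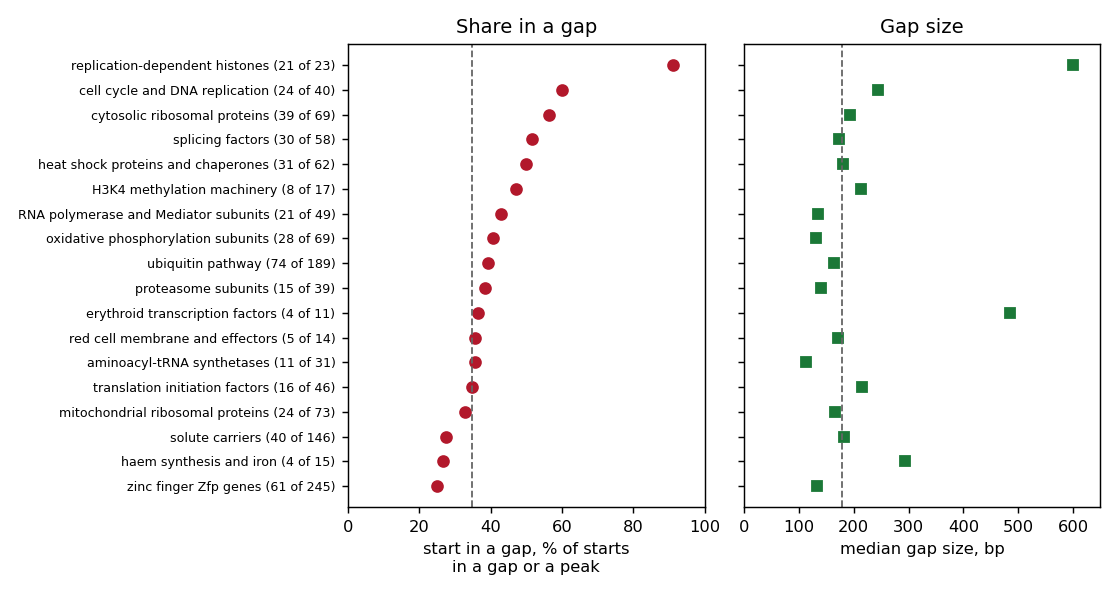
Left, the percent of starts in a gap among starts in a gap or a peak, for each gene list with at least 10 such starts, with both numbers beside its name and the value of all genes, 34.9%, as a dashed line. Right, the median gap size of the list's gap genes, with the 178 bp of all gap genes as a dashed line. Replication-dependent histones lie highest on both, at 91.3% and 600 bp.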

How the data were processed

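Peak lists were deposited for replicate 1, replicate 2, both pooled, and replicated peaks, on mm10. Alignments of a replicate and of a control gave that replicate's list, and the other 3 lists gave the replicated one, per the deposited notes. No aligner, peak caller, setting or rule for calling a peak replicated is named there or in the labels. The deposited signal value is the authors' number for each peak, and −log10 p and −log10 q are also as deposited by the authors. The summit, in bases from the peak's start, is another deposited column. An mm9 list was not used here. No read counts were used, so depth and the precision it gives are unknown.

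Starts came from GENCODE M21 and sequence from RefSeq's GRCm38. Each gene's 5'-most transcript start was placed in a peak, a gap of at most 1000 bp, or neither, and the same was done in each replicate list. The gap rule was checked on simulated data. No columns of other samples were present (0). Signal values were compared only within a list, upstream against downstream on the gene's strand. Repeated words are 32-base words found more than once on either strand. Python 3.11.15, numpy 2.4.6, numba 0.67.0 and matplotlib 3.10.9 were used.

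The genes named were the 8 with the highest weaker signal value, the 5 widest and the 5 narrowest gaps, the 5 largest and the 5 smallest log2 ratios, all gap genes of the erythroid, haem, membrane, Friend leukaemia and H3K4 lists, up to 3 of each other list by weaker signal value, and the 3 just inside and just outside 1000 bp. Some of these are given by counts and ranges. Histone genes beyond this rule were named after their values were seen, as were the sequences printed. The members and lists were chosen with earlier results of these data known. Alternatives were the pooled list, each replicate list alone, −log10 q of at least 5, gap limits of 500 and 2000 bp, basic protein-coding transcripts, strength by −log10 p or width, and other windows for CpG class and opposite starts. The one-way share and gaps with under 10% repeated words were added after the data were seen.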

Additional observations from a re-analysis of the deposited data

How the results depend on the processing

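The stronger peak lay downstream in most gap genes under every alternative run. The order of the flanks of single genes was not part of this check. It differed between lists for several genes named above, among them Rps6 and Wdr5. The rule rests on where the caller broke a peak, the depth is unknown, and 2 replicates give the only measure of spread. Leaving out 1 replicate, that is, using the other's list, gave between 2375 and 5283 gap genes, median gaps of 168 to 214 bp, a stronger downstream peak in 66.8% to 75.3% of gap genes and in 70.6% to 82.3% of one-way genes, high-CpG shares of 86.9% to 87.1% and opposite starts in 20.2% to 21.1%. The count of 5283 is that without replicate 2. The high-CpG share was 87.6% with the pooled list, 89.4% with −log10 q of at least 5, 87.8% with gaps up to 2000 bp, 88.7% with basic protein-coding transcripts and 92.5% with 250 bases either side of the start. Opposite starts were 21.1% with −log10 q of at least 5, 17.6% with basic transcripts and 19.6% within 500 bp. With 50% overlap required, both flanks were overlapped in 95% of genes by replicate 1 peaks and in 99.2% by replicate 2 peaks. Both shares counted as moved by a 95% confidence interval over genes. That interval takes genes as its units and does not measure the spread between replicates. Of 47 alternative values 30 stayed within that spread, or within 1.5 times the count of genes, among them 2375 genes, 168 bp, 75.3%, 82.3% and 20.2%. The cause of the other moves was not tested. Gaps with under 10% repeated words, added after the data were seen, gave a stronger downstream peak in 80.5% of one-way genes. No paired analysis was possible because the series holds 1 group.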

Other observations

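Low-CpG gap genes beyond the erythroid ones went both ways. The genes below were picked after their values were seen, from no list, and show the range only. Vav1, which encodes an exchange factor of blood cell signalling, had a signal value of 5.81 upstream and 21.5 downstream of a 117 bp gap, 3.84 and 18.4 in replicate 1 and 6.88 and 16.1 in replicate 2. Inpp5d, the gene of the SHIP1 phosphatase, had 2.89 and 12.6 across 157 bp, with 2.36 and 9.25 in replicate 1 and 3.05 and 14.4 in replicate 2. Traf3ip3, by contrast, had 3.93 upstream and 2.86 downstream of 295 bp, with 3.79 and 4.65 in replicate 1 and 3.90 and 2.81 in replicate 2. Ncf1, a subunit gene of the phagocyte oxidase, was level at 4.50 and 4.45 across 71 bp, and its start lay in 1 peak in replicate 1. Among all 74 one-way low-CpG genes, 50 had the stronger peak downstream and 24 upstream.

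Tfr2, the second transferrin receptor gene, also has a low-CpG promoter and was not on the list of haem and iron genes. It had 7.75 upstream and 7.50 downstream of 134 bp, with 7.65 and 4.98 in replicate 1 and 7.56 and 7.71 in replicate 2, so its flanks were near even and their order differed between lists.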
